A study of Mus musculus with 13 samples.

Results

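The genes described here encode subunits of the sperm calcium channel CatSper and channels or exchangers that act beside it in the flagellum. They were chosen by name: Catsper1, Catsper2, Catsper3, Catsper4, Catsperb, Catsperd, Catsperg1, Catsperg2, Kcnu1 and Slc9c1. These 10 genes are among 19057 named on the array, and they are measured by 12 of its 45281 probes. Each probe was followed on its own. The RNA came from round spermatids of mice aged about 8 weeks on the MF1YRIII background, in 4 genotypes. Slx/y-deficient spermatids (shSLX1shSLY, 3 arrays) carried both short hairpin RNA transgenes, Sly-deficient spermatids (shSLY, 3 arrays) carried the shSLY transgene, Slx/Slxl1-deficient spermatids (shSLX1, 3 arrays) carried the shSLX1 transgene, and WT spermatids (4 arrays) carried none. Each preparation was a pool of testes of several males, and the transgenes lower RNA by interference without removing the targeted multicopy genes, Sly on the Y chromosome and Slx and Slxl1 on the X chromosome.

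CatSper opens when the inside of the sperm cell becomes alkaline and lets calcium into the flagellum, and male mice that lack it cannot produce the hyperactivated beat needed for fertilization. CATSPER1, CATSPER2, CATSPER3 and CATSPER4 line the pore, and CATSPERB, CATSPERD and the CATSPERG proteins are accessory subunits with large parts outside the cell. Kcnu1 encodes SLO3, the alkaline-activated potassium channel of mouse sperm, and Slc9c1 encodes a sperm-specific sodium and proton exchanger. Transcripts of the pore subunits are known from meiotic and postmeiotic germ cells of the mouse testis.

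Catsper3, which carries the one call reported below, and Catsperd, whose signal was low on the same arrays, were set side by side at their promoters. Each line gives the 250 bases before the start used for the promoter window, on the plus strand of GRCm38.p6, from RefSeq. Bases are in lower case with a motif match in capitals. The Catsper3 stretch lies at chr13:55784329-55784578 and the Catsperd stretch, before the first of its 2 starts in the table, at chr17:56626797-56627046. The annotated genes begin at 55784500 (Catsper3) and 56626911 (Catsperd), inside these stretches. Part of each stretch therefore lies within the annotated gene, and the 2 kinds of start were not reconciled.
Catsper3: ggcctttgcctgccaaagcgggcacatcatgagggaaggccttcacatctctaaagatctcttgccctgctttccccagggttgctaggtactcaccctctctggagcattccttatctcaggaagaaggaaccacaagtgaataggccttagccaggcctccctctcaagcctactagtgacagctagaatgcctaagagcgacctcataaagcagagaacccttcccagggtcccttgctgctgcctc
Catsperd: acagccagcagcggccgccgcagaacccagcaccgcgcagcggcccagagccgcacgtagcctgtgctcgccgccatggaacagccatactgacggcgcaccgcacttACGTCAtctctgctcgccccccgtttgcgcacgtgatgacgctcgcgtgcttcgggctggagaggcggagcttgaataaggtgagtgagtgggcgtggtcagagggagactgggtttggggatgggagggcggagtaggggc
Both strands were searched for TGACGTCA and its core TGACGT, the cAMP response element bound by the spermatid activator CREM, for GTTGCC, a part of the X-box bound by RFX factors, and for CAACTG, bound by MYB factors. The capitals in Catsperd mark TGACGT read on the reverse strand, starting 142 bases before the start used for its window. No searched motif was found in the Catsper3 stretch. Of the 32851 promoter windows in the table (each 250 bases before to 50 after a start), 7.51% hold TGACGT, 1.79% hold TGACGTCA, 12.5% hold GTTGCC and 13.7% hold CAACTG. The table held 9 windows for 7 of the 10 genes. Besides the Catsperd match, Catsperb held CAACTG 101 and 114 bases before its start, and Slc9c1 held it within the bases after its start. GC content was 52.3% in the Catsper3 window and 66.7% in the Catsperd window, against a median of 52.7% over all windows. A match describes letters only, and binding was not measured.

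Of the 12 probes, 10 probes of 9 genes passed the filter on low signal (a detection p-value under 0.05 on at least 3 arrays), as did 20250 probes in all. The 9 probes of Catsper1, Catsper2, Catsper3 (2 probes), Catsper4, Catsperd, Catsperg2, Kcnu1 and Slc9c1 were detected on all 13 arrays. Catsperg1 was detected on 0 of the 13 arrays, with detection p-values between 0.38 and 0.853, and so was one of the Slc9c1 probes (ILMN_1230999, 0.173 to 0.979). Catsperb passed through 4 arrays only, 1 of shSLX1shSLY, 2 of shSLY, 1 of shSLX1 and 0 of WT. Its log2 signal lay between 4.59 and 5.07 on the 13 arrays, and it was not above background on any WT array, so its differences are left out of the ranges and medians below. Catsperg1 and Catsperg2 are closely related neighbours on chromosome 7, and which bases their probes detect was not analysed here.

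The arrays were clustered into 3 sets, a fixed number, by the raw signal of the 20382 probes detected on no array. The labels do not name these sets. Set 1 held shSLY 1, shSLY 2, WT 1 and WT 2, set 2 held shSLX1 1, shSLX1 2, WT 3 and WT 4, and set 3 held all shSLX1shSLY arrays with shSLY 3 and shSLX1 3. Correlations of these signals, from which the sets were formed, were 0.536 to 0.573 within set 3, and 0.286 to 0.367 between set 3 and the other sets. Sets 1 and 2 were less distinct from each other (0.462 to 0.553, against 0.441 to 0.49 within set 2) but differed in the median signal of undetected probes, which was 53.4 to 56.1 in set 1 and 71.1 to 78.1 in sets 2 and 3. No WT array lies in set 3, so shSLX1shSLY can be compared with WT apart from the set only through shSLY 3 and shSLX1 3. Between 16110 and 19057 probes were detected per array. The probe named Sly had a log2 signal of 10.30 to 10.63 in shSLX1shSLY, 10.08 to 10.71 in shSLY and 8.65 to 10.21 in shSLX1, against 9.85 to 10.35 in WT. It was not lower in shSLY than in WT (log2 difference 0.33, adjusted p = 0.63 from limma). Which of the multicopy Sly transcripts it reads was not analysed here, so group names follow the labels. The authors reported a Sly knockdown in round spermatids of shSLY and shSLX1shSLY by real-time PCR, and detected no SLY1 protein in either.

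Catsper3 gave the only call among the 10 probes in the comparisons with WT. A call here needed an adjusted p under 0.05 from limma, over all 20250 probes, and a fold over 1.5. The log2 signal of its probe ILMN_2773872 was 11.09, 11.01 and 10.99 in shSLX1shSLY, 11.48, 11.56 and 10.99 in shSLY and 11.49, 11.48 and 10.96 in shSLX1, against 11.56, 11.71, 11.64 and 11.61 in WT. All shSLX1shSLY arrays were below all WT arrays, and within shSLY and shSLX1 the third array was low while the other two lay near WT. The probe fell by 0.60 on the log2 scale in shSLX1shSLY relative to WT (SE 0.17, 0.659-fold, adjusted p = 0.0352). In shSLY the difference was -0.29 (SE 0.17, adjusted p = 0.464) and in shSLX1 -0.32 (SE 0.17, adjusted p = 0.475).

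The low arrays of this probe were those of set 3. Its 5 set 3 arrays lay between 10.96 and 11.09, and the 8 others between 11.48 and 11.71. Within set 3, shSLX1shSLY was 0.04 above the shSLY array and 0.07 above the shSLX1 array on the log2 scale. Within shSLY, the set 3 array was 0.53 below the mean of the others, and the same difference within shSLX1 was also -0.53. With array set in the fit, the difference between shSLX1shSLY and WT was -0.07 (SE 0.14, 95% interval -0.37 to 0.23, adjusted p = 0.906 from limma). Leaving out any one array of shSLX1shSLY or of WT also ended the call, with adjusted p between 0.0631 and 0.107 and a difference between -0.63 and -0.58.

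The second Catsper3 probe, ILMN_2998446, did not follow the first. Its log2 signal was 12.24, 12.26 and 12.18 in shSLX1shSLY, 12.19, 12.29 and 12.12 in shSLY and 12.12, 12.14 and 12.05 in shSLX1, against 12.22, 12.34, 12.18 and 12.12 in WT. The shSLX1shSLY values lay inside the WT range, and the difference was 0.01 (SE 0.12, 95% interval -0.24 to 0.26, adjusted p = 0.968 from limma). The change of the first probe minus that of the second, taken within each array, was -0.61 in shSLX1shSLY, -0.27 in shSLY and -0.21 in shSLX1 relative to WT. It is given as a description with no test, since the pair was looked at because the calls differed. Both probes carry the same transcript accession in the array annotation.

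**Figure D1:**
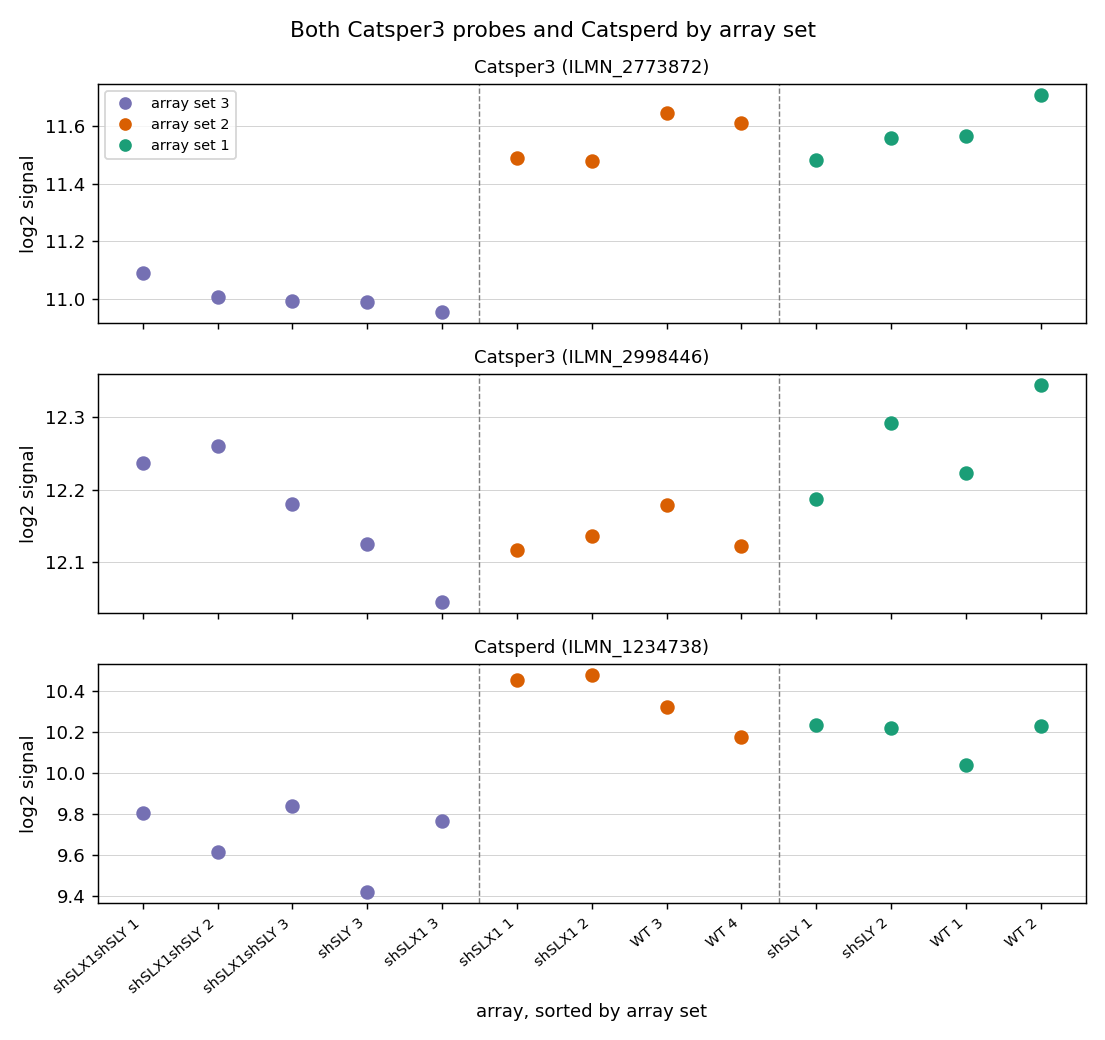
Normalized log2 signal (vertical axis) of both Catsper3 probes and of Catsperd on each array (horizontal axis), with arrays sorted and coloured by array set. In set 3 the first Catsper3 probe lies at 10.96 to 11.09 and Catsperd at 9.42 to 9.84, below all other arrays, while the second Catsper3 probe overlaps between sets.

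Catsperd, whose protein mice need to form the channel complex, had a log2 signal of 9.80, 9.62 and 9.84 in shSLX1shSLY, 10.23, 10.22 and 9.42 in shSLY and 10.45, 10.48 and 9.76 in shSLX1, against 10.04, 10.23, 10.32 and 10.17 in WT. As for Catsper3, the shSLX1shSLY and WT arrays did not overlap and the low arrays of the single lines were the third ones. The difference between shSLX1shSLY and WT was -0.44 (SE 0.21, 95% interval -0.89 to 0.01, adjusted p = 0.168 from limma), which is not a call. Set 3 arrays lay between 9.42 and 9.84 and the others between 10.04 and 10.48. With array set in the fit the difference was 0.32 (95% interval -0.02 to 0.66, adjusted p = 0.505), of the opposite sign.

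Among the other pore subunits, Catsper1 stood apart in shSLX1. Its log2 signal was 11.15, 11.27 and 11.12 in shSLX1shSLY, 11.21, 11.31 and 11.17 in shSLY and 10.32, 10.83 and 11.12 in shSLX1, against 11.08, 11.26, 11.13 and 11.22 in WT. A pair of shSLX1 arrays was below all other arrays, and the third shSLX1 array lay within the WT range. The difference between shSLX1 and WT was -0.41 (SE 0.16, adjusted p = 0.331 from limma), and that between shSLX1shSLY and shSLX1 was 0.43 (SE 0.17, adjusted p = 0.143 from limma), neither of them a call. Within set 2, where both low arrays lie, shSLX1 was 0.60 below WT (log2 difference -0.60). With array set in the fit the difference of shSLX1 from WT was -0.44 (SE 0.16, adjusted p = 0.214).

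Catsper2 separated array set 1 from the others, at 13.13 to 13.28 against 13.40 to 13.69, while sets 2 and 3 overlapped. Its log2 signal averaged 13.54 ± 0.09 in shSLX1shSLY, 13.25 ± 0.14 in shSLY and 13.49 ± 0.08 in shSLX1 (SD, n = 3 each), against 13.45 ± 0.24 in WT (SD, n = 4). The WT arrays split into 13.28 and 13.21 in set 1 and 13.69 and 13.61 in set 2, a gap of 0.41, which is wider than any difference of a genotype from WT. Its differences from WT were 0.09, -0.20 and 0.04 in shSLX1shSLY, shSLY and shSLX1.

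Catsper4, the remaining pore subunit, averaged 11.12 ± 0.08 in shSLX1shSLY, 11.37 ± 0.33 in shSLY and 11.22 ± 0.06 in shSLX1 (SD, n = 3 each), against 11.34 ± 0.17 in WT (SD, n = 4). The 4 arrays of set 1 held its highest values. The difference between shSLX1shSLY and WT was -0.22 (95% interval -0.56 to 0.12, adjusted p = 0.351 from limma), and with array set in the fit it was 0.11 (95% interval -0.20 to 0.43, adjusted p = 0.847).

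Catsperg2, an accessory subunit, had a log2 signal of 9.53, 9.18 and 9.43 in shSLX1shSLY, 9.87, 9.75 and 9.24 in shSLY and 8.83, 9.40 and 9.11 in shSLX1, against 9.56, 9.76, 9.54 and 9.46 in WT. All shSLX1 arrays were below all WT arrays. The difference between shSLX1 and WT was -0.47 (SE 0.18, adjusted p = 0.312 from limma), so it was not called. Within set 2 it was -0.38, and with array set in the fit -0.28 (SE 0.17, adjusted p = 0.462).

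Kcnu1, the SLO3 channel gene, had a log2 signal of 9.24, 9.71 and 8.96 in shSLX1shSLY, 9.26, 9.36 and 8.79 in shSLY and 9.37, 9.25 and 9.18 in shSLX1, against 9.34, 9.34, 9.83 and 9.88 in WT. WT 1 and WT 2 overlapped with shSLY, and WT 3 and WT 4 were higher than all other arrays. The difference between shSLY and WT was -0.46 (SE 0.20, adjusted p = 0.326 from limma). Within set 1, which leaves out WT 3 and WT 4, shSLY differed from WT by -0.03. Over all arrays and with array set in the fit, the difference was -0.26 (SE 0.20, adjusted p = 0.65).

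Slc9c1 had the widest range over the 13 arrays among the 10 probes. Its detected probe had a log2 signal of 11.49, 11.56 and 11.57 in shSLX1shSLY, 10.14, 10.97 and 11.57 in shSLY and 11.84, 11.28 and 10.90 in shSLX1, against 10.94, 10.81, 11.48 and 11.51 in WT. The shSLX1shSLY arrays were close together, and those of each other genotype were spread more widely, mostly toward lower values. The difference between shSLX1shSLY and shSLY was 0.65 (SE 0.31, 95% interval -0.02 to 1.31, adjusted p = 0.261 from limma). Without shSLY replicate 3 it was 0.98 (adjusted p = 0.0398) and passed the call, but this leaves out the only shSLY array in the set of shSLX1shSLY. Within set 3 the difference from shSLY was -0.03, while that from shSLX1 was 0.64, each resting on 1 array of the single line. With array set in the fit, the difference from shSLY was 0.24 (SE 0.29, adjusted p = 0.831 from limma). That from shSLX1 was 0.38 (SE 0.29, adjusted p = 0.551 from limma).

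**Figure D2:**
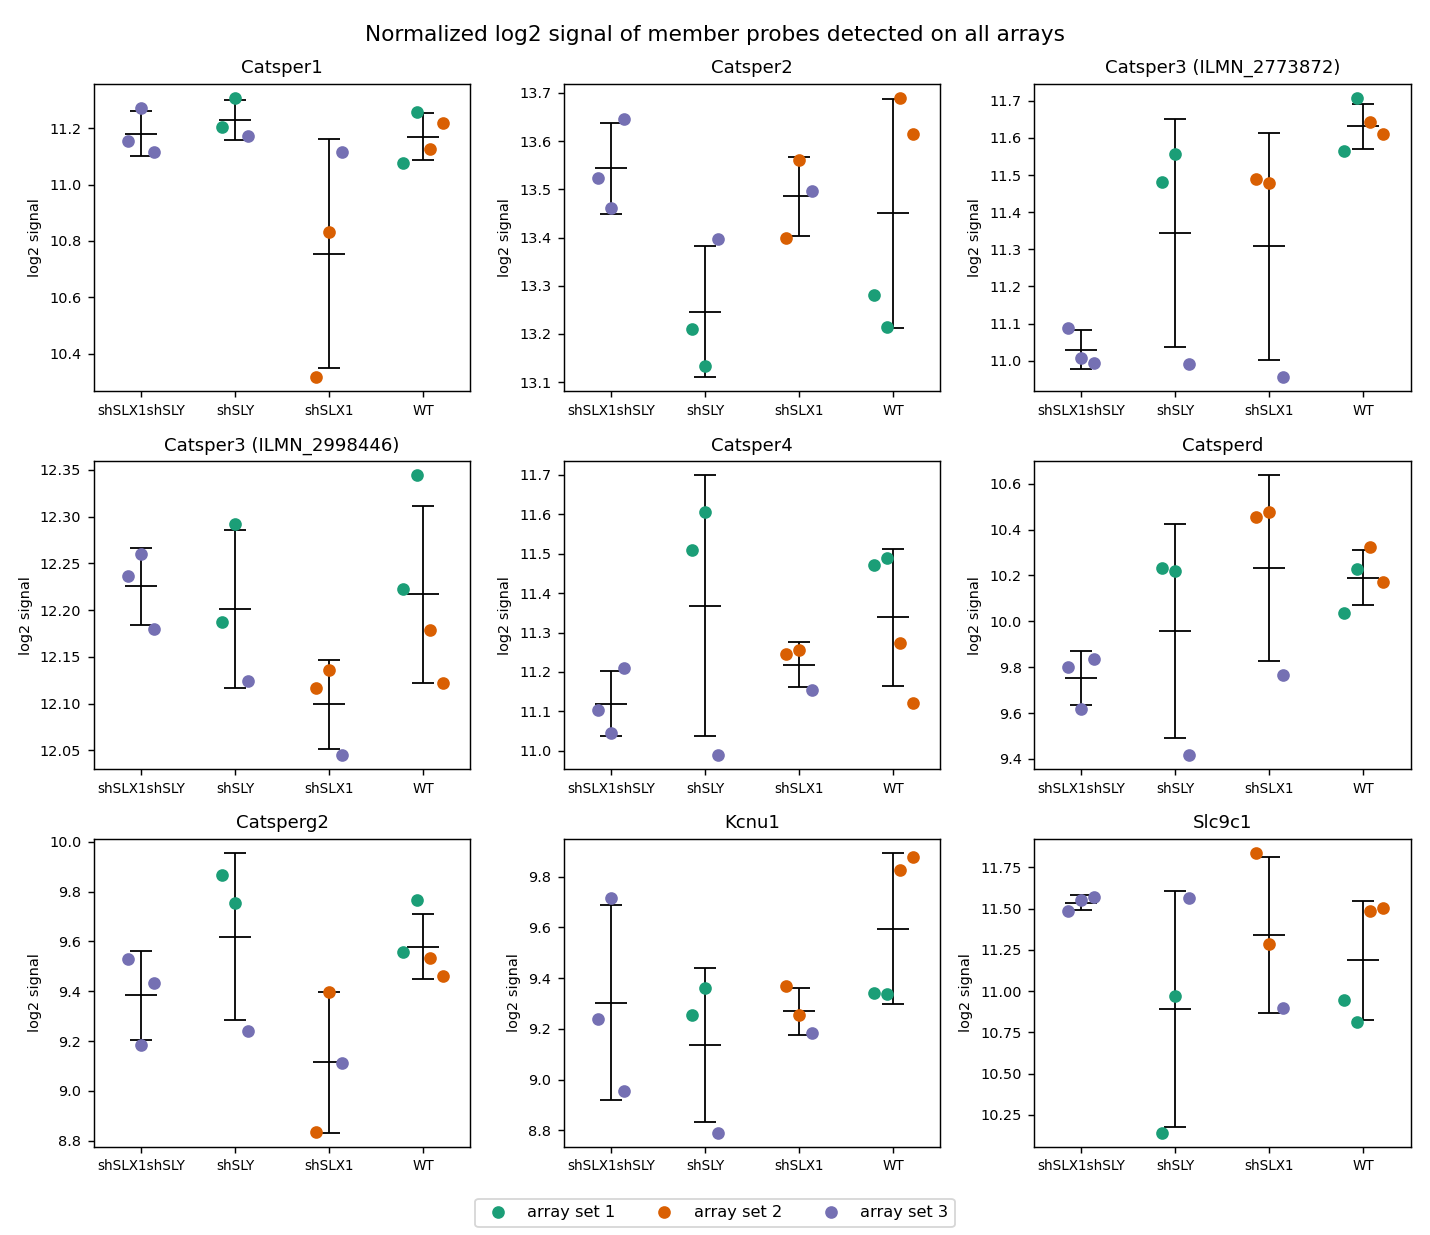
Normalized log2 signal (vertical axes) of the 9 member probes detected on all 13 arrays, by genotype (horizontal axes), with points coloured by array set and black bars for the mean ± SD of 3 arrays per transgenic group and 4 of WT. The first Catsper3 probe is lower on every shSLX1shSLY array than on every WT array, and its low shSLY and shSLX1 points are those of set 3.

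Counted over the members, few probes passed in any comparison. In shSLX1shSLY relative to WT, 1 of 10 member probes was called, and 1 of 10 was called lower. Of all probes, 9.58% were called in this comparison and 4.87% were called lower, so 1 of 10 is near the share of all probes. In shSLY relative to WT, 0 of 10 were called (1 at an unadjusted p under 0.05 in limma), against 2.4% of all probes (485 probes, or 278 with the replicate number as a block). In shSLX1 relative to WT, 0 of 10 were called (2 unadjusted), against 1.46% of all probes. At an unadjusted p under 0.05 in limma, 6490 of all 20250 probes passed in shSLX1shSLY, 2843 in shSLY and 2375 in shSLX1.

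The comparisons between transgenic groups gave no member call either. In shSLX1shSLY relative to shSLY, 0 of 10 were called (0 unadjusted) with 0.0444% of all probes, and in shSLX1shSLY relative to shSLX1, 0 of 10 (1 unadjusted) with 6.68% of all probes. For the interaction, the effect of the shSLY transgene on the shSLX1 background minus its effect on the WT background, 0 of 10 were called (0 unadjusted) with 1.06% of all probes. Member differences ran from -0.31 (the first Catsper3 probe) to 0.65 (Slc9c1) relative to shSLY, from -0.48 (Catsperd) to 0.43 (Catsper1) relative to shSLX1, and from -0.25 (Catsperd) to 0.49 (Kcnu1) for the interaction. Over the 4 genotypes together, limma's moderated F gave 0 of 10 at an adjusted p under 0.05, with 9.23% of all probes, and the smallest adjusted p among members was 0.102 for the first Catsper3 probe.

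The median log2 difference from WT of the 9 member probes detected on all arrays, which leaves out Catsperb, was -0.20 in shSLX1shSLY, -0.20 in shSLY and -0.12 in shSLX1. Over all probes these medians were -0.04, -0.03 and -0.03. Under other settings the member medians kept neither size nor sign in shSLX1shSLY and shSLY, and stayed negative in shSLX1. With array set in the fit they were 0.09 in shSLX1shSLY, -0.06 in shSLY and -0.14 in shSLX1, and with 1 probe per gene, which keeps 8 probes, -0.09, -0.11 and -0.12. Without shSLY replicate 3 the median in shSLY was 0.02. Individual differences of the 9 probes ran from -0.60 to 0.35 in shSLX1shSLY, from -0.46 to 0.06 in shSLY and from -0.47 to 0.15 in shSLX1. Their 95% intervals reached -0.95 and 0.97 in shSLX1shSLY, -0.92 and 0.42 in shSLY, and -0.84 and 0.78 in shSLX1. With 3 arrays per transgenic group, differences inside these bounds could go uncalled.

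**Figure D3:**
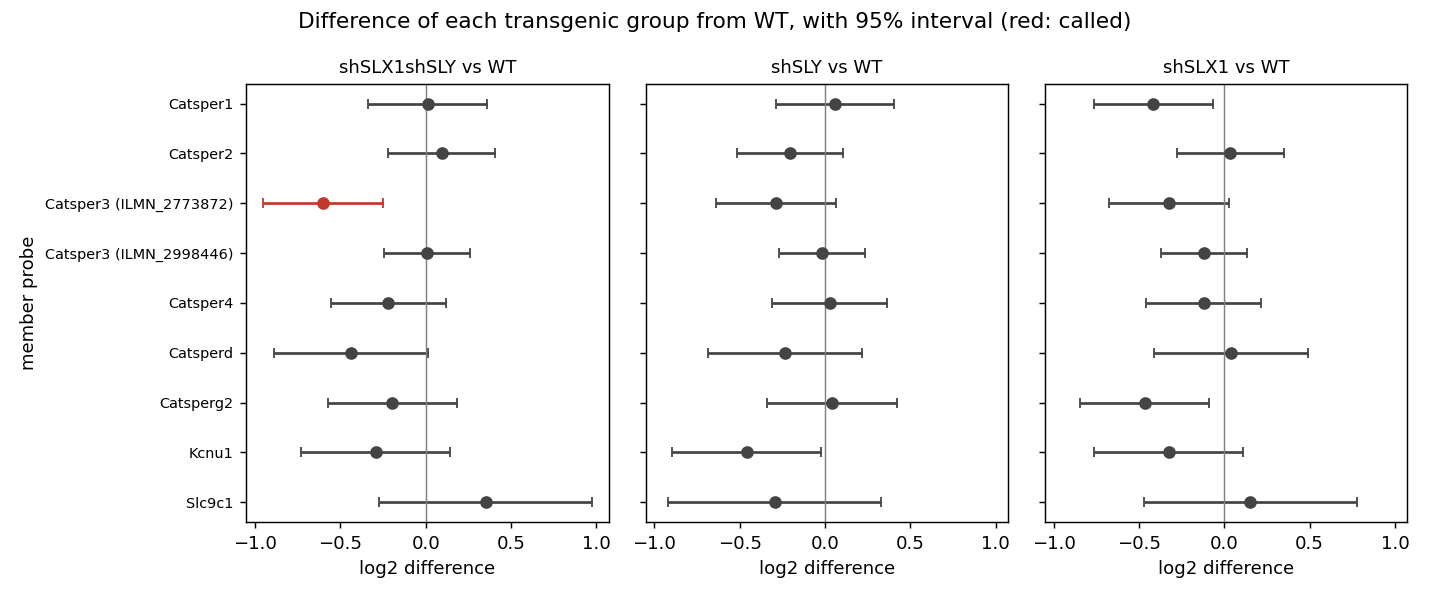
Log2 difference from WT (horizontal axes) of the 9 member probes detected on all arrays (vertical axis) in shSLX1shSLY, shSLY and shSLX1, with 95% intervals from limma and the called value in red. The one called value is the first Catsper3 probe in shSLX1shSLY, at -0.60.

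By overlap of arrays, 2 of 10 member probes (the first Catsper3 probe and Catsperd) separated shSLX1shSLY from WT, against 35.4% of all probes. The counts were 1 of 10 in shSLY (Catsper3, 16.4% of all probes) and 2 of 10 in shSLX1 (Catsper3 and Catsperg2, 12.1% of all probes). By array set, 2 of 10 separated set 3 from the other arrays (Catsper3 and Catsperd, 15.2% of all probes). Set 1 was separated by 3 of 10 (Catsper2, Catsper4 and Catsperg2, 9.23% of all probes) and set 2 by 0 of 10 (7.34% of all probes). Genotype and set cannot be told apart for shSLX1shSLY other than through shSLY 3 and shSLX1 3.

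**Figure D4:**
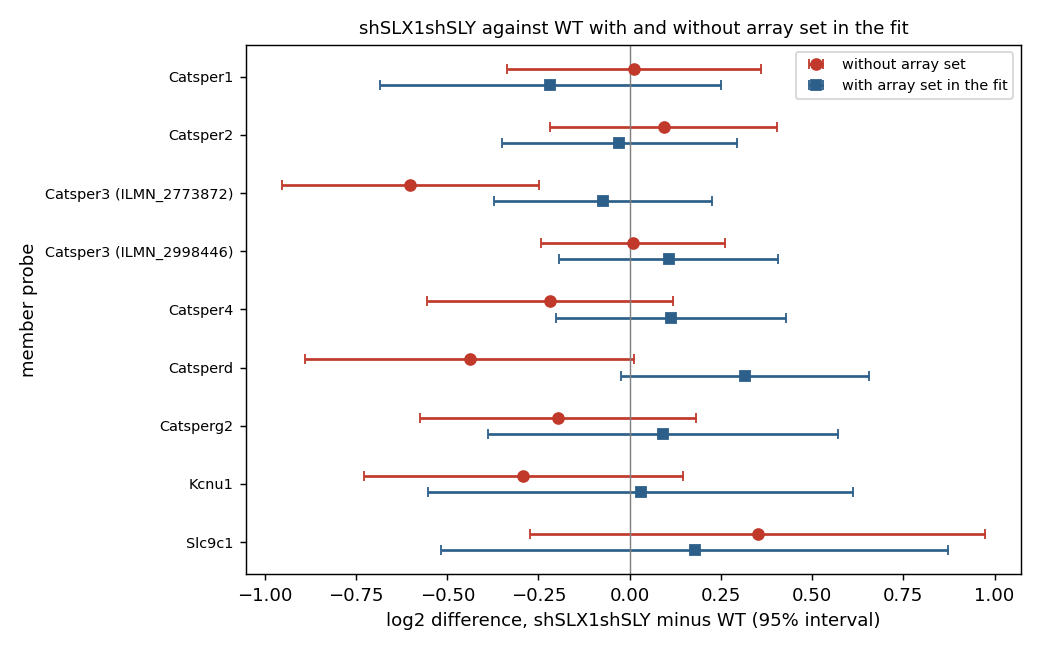
Log2 difference of shSLX1shSLY minus WT (horizontal axis, 95% interval from limma) for the 9 member probes detected on all arrays (vertical axis), without (circles) and with (squares) array set in the fit. The first Catsper3 probe moves to -0.07 and Catsperd to 0.32 with array set in the fit, and all 9 intervals with the set include 0.

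The probes most like the first Catsper3 probe over the 13 arrays, as a description, were those of Rnf220 (Pearson r 0.977), Prpsap1 (0.972), Cox5b (0.969), Ncapd2 (0.969) and Tex264 (0.968). Each of these was also lower on all set 3 arrays than on all others. Rnf220, for example, had a log2 signal of 7.25 to 7.49 in set 3 and 8.74 to 8.99 elsewhere.

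The other genes of the channel complex gave no call in any comparison. Of 10 such genes, among them Catsperz, Efcab9, C2cd6 and Trim69, 8 are on the array and 6 passed the filter with 8 probes. Of these 8 probes, 0 were called in shSLX1shSLY relative to WT (1 unadjusted), 0 in shSLY (0 unadjusted) and 0 in shSLX1 (0 unadjusted). Their median log2 difference was -0.04, -0.10 and 0.07 in these groups.

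Among 16 other sperm ion transport genes, 10 passed the filter with 15 probes. The one call was a probe of Atp2b4, the plasma membrane calcium pump that clears calcium from mouse sperm, which fell by 0.79 on the log2 scale in shSLX1shSLY relative to WT (SE 0.24, adjusted p = 0.0444 from limma). The log2 signal of this probe was low, 4.76 to 5.39 on set 3 arrays and 5.36 to 6.11 on the others. Its lowest values thus lay in the range of Catsperb, whose signal was near background. The other Atp2b4 probe differed by -0.17 (adjusted p = 0.436). When array set was in the fit, the called probe differed by -0.24 (adjusted p = 0.76). Of the 15 probes, 0 were called in shSLY and 0 in shSLX1 relative to WT (2 and 1 unadjusted).

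Of 8 genes of bicarbonate and cAMP signalling, which acts upstream of hyperactivation, all passed the filter with 16 probes. One of the 5 probes of Akap4, the major scaffold protein of the fibrous sheath of the flagellum, rose by 0.61 in shSLX1shSLY relative to WT (ILMN_3128227, SE 0.14, adjusted p = 0.0205 from limma). Its other probes differed by 0.81, 0.22, 0.20 and -0.40, with no call. A probe of Prkaca, a catalytic subunit of protein kinase A, rose by 0.81 in shSLX1shSLY relative to shSLX1 (ILMN_2833378, SE 0.23, adjusted p = 0.0453 from limma), while the other differed by -0.08 (adjusted p = 0.772). The called differences with array set in the fit were 0.30 for Akap4 and 0.37 for Prkaca (adjusted p = 0.536 and 0.415), and both called probes were higher on all set 3 arrays than on all others. Of the 16 probes, 0 were called in shSLY and 0 in shSLX1 relative to WT (1 and 2 unadjusted). In shSLX1shSLY relative to WT, 8 of the 16 had an unadjusted p under 0.05 in limma, against 6490 of all 20250 probes.

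Markers of round spermatids were present in all groups, with 7 of 8 genes past the filter. In shSLX1shSLY relative to WT, 1 of their 12 probes was called (a probe of Zpbp, 0.79, adjusted p = 0.0352 from limma). The other Zpbp probe differed by 0.07 (adjusted p = 0.746 from limma). Of markers of late round and elongating spermatids (7 of 8 genes, 12 probes), the median log2 signal was 12.85 to 12.98 in shSLX1shSLY, 12.77 to 12.98 in shSLY and 12.77 to 12.87 in shSLX1, against 12.41 to 12.66 in WT. In each transgenic group their summed linear signal overlapped with that of WT, and 1 of the 12 probes (Akap4) was called in shSLX1shSLY relative to WT. Several of the 12 probes were those of Akap4. The median log2 difference from WT over the probes was 0.06 in shSLX1shSLY, 0.27 in shSLY and 0.14 in shSLX1. In shSLX1shSLY the probes ran from -0.63 (Tnp1) to 0.81 (Akap4). Markers of red blood cells (2 of 4 genes, 5 probes) had a summed signal of 260.7 to 274.5 in shSLX1shSLY, 852.9 to 3332 in shSLY and 281.3 to 440.8 in shSLX1, against 213.2 to 2114 in WT. For Sertoli cells 2 of 6 marker genes passed the filter, for Leydig cells 3 of 5, for macrophages 4 of 6 and for spermatogonia and spermatocytes 3 of 8. Sox9, Insl3, Cyp11a1, Cyp17a1, Csf1r, C1qb, Adgre1, Lyz2, Kit, Spo11 and Sycp1 were among those that passed, and Amh, Star, C1qa, Stra8 and Sycp3 among those that did not. Of 7 macrophage probes, 1 was called higher in shSLX1shSLY, a probe of Adgre1 (0.90 relative to WT, adjusted p = 0.0394, and 1.00 relative to shSLX1, adjusted p = 0.0403, limma). The uncalled macrophage probes went both ways. Relative to WT, Adgre1 differed by -0.36 and 0.89, Lyz2 by -0.89 and 0.60, C1qb by -0.40 and Csf1r by 0.38. Relative to shSLX1 these differences were, in the same order, -0.20, 0.92, -1.47, 0.26, -0.67 and 0.04. The part of these differences in the values of the sperm channel genes was not tested. In bulk preparations such as these, fewer cells of a type and less RNA per cell cannot be told apart.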

How the data were processed

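RNA of purified round spermatids was hybridized to 13 single-colour Illumina mouse arrays. For each probe and array the authors deposited an intensity (mean bead signal, linear, not normalized) and a detection p-value, and the submitters' notes name GenomeStudio 2011.1. The authors' table of normalized intensity values was used as an alternative. Probe sequences were not analysed here.

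The neqc function of limma 3.58.1 (R 4.3.3) took the intensities to normexp-corrected, quantile-normalized log2 values, with offset 16 and detection p-values standing in for negative control beads. The filter kept 20250 of 45281 probes, those detected (p under 0.05) on 3 or more arrays. Of all probes, 34885 had 1 gene name in the platform annotation, 18 several and 10378 none. limma fitted 1 mean per genotype over all arrays (9 residual degrees of freedom), with Benjamini-Hochberg adjustment over all kept probes. Calls required a fold over 1.5 as well as an adjusted p under 0.05. The fit was also run on simulated data with independent noise on each array. These held no array set, so the run cannot show how the sets affect the calls. Array sets came from Ward clustering of probes detected on no array, with the number of sets fixed at 3. Promoters were RefSeq windows of GRCm38.p6. Plots used matplotlib 3.10.9 (Python 3.11.15).

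Deviations of same-numbered arrays from their group means correlated positively between shSLY and shSLX1 (0.169, 0.296 and 0.47) and between shSLY and WT (0.104, 0.242 and 0.236). In the other pairs of groups they did not do so throughout. The same number was often not the best match. Arrays shSLY 1, 2 and 3 were closest to WT 2, 1 and 4, and shSLY 1 was closest to shSLX1 2. The closest same-numbered arrays, shSLY 3 and shSLX1 3, both lie in set 3. A pairing by number is therefore not established, and no label says what a number shares. The members, gene lists and probe rules were chosen with earlier results of these data known. All member probes are named, together with the list genes that were called and the 5 probes most like the member with the largest F. Alternatives were other background corrections, scalings, filters, blocks, weights and leaving out each array. The number of arrays limits the precision.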

Additional observations from a re-analysis of the deposited data

How the results depend on the processing

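The count of called member probes in shSLX1shSLY relative to WT was 1, and it was 2 after median scaling (Catsper3, and Catsperd at -0.82, in a scaling where the median of all probes was -0.31), 0 without a filter, 0 with 1 probe per gene, which keeps the brighter second Catsper3 probe, and 0 with array set as a block. Leaving out 1 array gave 0 to 1. In shSLX1shSLY relative to shSLY the count was 1 with array quality weights (Slc9c1) against 0, and 0 to 1 without 1 array. In shSLX1shSLY relative to shSLX1 it was 1 with array quality weights (Catsperd) against 0, and 0 to 2 without 1 array, the 2 being Catsper1 and Catsperd without shSLX1 replicate 3. The alternatives of the moderated F were chosen after seeing the data. Its count of member probes was 6 with array quality weights against 0, and 0 to 2 without 1 array. With these weights 10005 of all 20250 probes passed the F, against 1870 as reported, so the rise was not particular to the member probes. The count was 2 without shSLY replicate 3, where 4580 of all probes passed, and without shSLX1 replicate 3, where 4106 passed. The counts for shSLY and shSLX1 relative to WT and for the interaction were 0 under all alternatives run. With the replicate number as a block, the count stayed at 1 in shSLX1shSLY relative to WT and at 0 in the other comparisons. This block thus changed no call of a member probe.

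Over all probes the number called was less stable. Under the settings other than leaving out an array it was 37 to 4187 in shSLX1shSLY relative to WT (1939 as reported, 37 with array set as a block), 248 to 879 in shSLY (485), 136 to 420 in shSLX1 (295), 0 to 3760 in shSLX1shSLY relative to shSLY (9), 532 to 3343 relative to shSLX1 (1353) and 74 to 1888 for the interaction (215). Leaving out 1 array gave, in the same order, 312 to 2601, 244 to 580, 206 to 398, 0 to 2701, 601 to 3647 and 120 to 278. The cause was not tested. With signals near background, as for Catsperb and Catsperg1, these arrays give no usable difference.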
